A study of Mus musculus with 3 samples.

Results

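The keratin genes of the mouse were examined for accessible chromatin in Müller cells, the radial glia of the retina. Members were all protein-coding genes of the GENCODE M21 annotation whose symbol is Krt followed by a number and an optional letter, with the keratin-associated Krtap genes left out. The rule gave 53 of 21728 protein-coding genes. Of these, 27 lie on chromosome 11, where the type I genes form a cluster, and 26 lie on chromosome 15, where the type II genes form a cluster that also holds the type I gene Krt18.

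The series is a DNase-seq study, in which DNase I digestion marks accessible chromatin. It holds 1 group of 3 biological replicates of primary Müller cells from 12 day old mice of strain B6NCrl, with both sexes pooled and the health state given as healthy. The replicates carry separate biosample labels and the same donor label, so the spread between them may be partly technical. The labels name no sort, no time in culture, no treatment and no control, and point to a protocol written for cultured cells, so there is no comparison of conditions.

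Keratins are the intermediate filament proteins of epithelial cells, and a filament forms from pairs of a type I and a type II keratin. Simple epithelia use pairs such as Krt8 with Krt18, the basal layer of stratified epithelia uses Krt5 with Krt14, the layers above it in the epidermis use Krt1 with Krt10, and hair, nail and the sheath around the hair root have keratins of their own. Glia build their intermediate filaments mainly from vimentin and GFAP, which belong to another class of the same family.

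Each value below is the score that the authors' files give to a peak, a whole number from 1 to 150 whose meaning is not stated. Its upper end equals the usual peak width of 150 bp, so it may saturate. A reproducible site is a region with overlapping peaks in all 3 replicates, and a gene is called open where at least 1 of its annotated starts has such a site at a distance of 1 kb or less. Open describes access to DNase I and not transcription. Replicates 1, 2 and 3 held 300269, 281185 and 184544 peaks, and 145262 reproducible sites lay on the autosomes and X. Read depth is unknown, since the peak lists carry no read counts. Replicate 3 stood apart from the others. The 8 microglia and macrophage genes checked (Spi1, Cx3cr1, C1qa, C1qb, C1qc, Csf1r, Aif1 and Tyrobp) each had a promoter peak in replicates 1 and 2, with scores between 52 and 101 in replicate 1 and between 54 and 100 in replicate 2, and none had one in replicate 3. All 8 Müller glia genes checked were open (Rlbp1, Glul, Slc1a3, Sox9, Aqp4, Vim, Sox2 and Kcnj10), against 68.3% of all protein-coding genes.

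The sequences that carry the results come from the neighbourhood of Krt8 and Krt18 and from the sites upstream of Krt80 and Krt86, the open keratin genes whose coding start has a strong site close by. They are read from the GRCm38.p6 genome, the same build as mm10, with capitals marking matches to any of 12 short motifs searched on both strands. Sites are given on the plus strand and the bases upstream of a start on the strand of the gene. Those of general promoter elements were the GC box read as GGGCGG, the CCAAT box read by its own letters and the TATA box read as TATAAA. Among motifs of factor families, AP-1 was read as TGANTCA, the grainyhead-like factors (GRHL) were read as AACCNGTT, TEAD factors by the letters GGAATG and SOX factors by the letters ACAATG. The ETS family was read as CCGGAAG, nuclear factor I (NFI) by the letters TTGGCA, the core of CTCF by the letters AGGGGGC, the myeloid factor PU.1 by the letters GAGGAAGT and the E-box by the letters CAGCTG. The CCAAT and NFI letters can overlap. A match is a description of letters and not a bound site.
Site upstream of Krt8, chr15:102005416-102005585: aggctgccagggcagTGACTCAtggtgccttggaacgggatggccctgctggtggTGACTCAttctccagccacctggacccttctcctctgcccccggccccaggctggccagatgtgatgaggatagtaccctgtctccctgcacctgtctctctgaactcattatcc
Site inside Krt8, chr15:102002976-102003145: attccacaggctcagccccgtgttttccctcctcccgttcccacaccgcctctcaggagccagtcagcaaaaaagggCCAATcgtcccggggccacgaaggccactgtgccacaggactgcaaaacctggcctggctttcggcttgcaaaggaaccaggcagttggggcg
Strongest site between Krt78 and Krt8, chr15:101977456-101977625: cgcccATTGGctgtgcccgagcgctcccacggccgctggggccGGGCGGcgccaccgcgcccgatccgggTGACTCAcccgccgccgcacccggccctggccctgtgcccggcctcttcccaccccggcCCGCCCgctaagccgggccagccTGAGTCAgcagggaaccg
Another site between Krt78 and Krt8, chr15:101984336-101984505: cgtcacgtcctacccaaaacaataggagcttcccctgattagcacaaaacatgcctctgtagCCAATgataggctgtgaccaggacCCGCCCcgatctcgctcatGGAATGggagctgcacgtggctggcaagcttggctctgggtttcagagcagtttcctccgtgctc
Site upstream of Krt80, chr15:101370456-101370605: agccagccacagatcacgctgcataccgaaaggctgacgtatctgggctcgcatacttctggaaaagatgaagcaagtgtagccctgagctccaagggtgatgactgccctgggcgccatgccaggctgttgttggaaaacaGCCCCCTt
Site upstream of Krt86, chr15:101473076-101473245: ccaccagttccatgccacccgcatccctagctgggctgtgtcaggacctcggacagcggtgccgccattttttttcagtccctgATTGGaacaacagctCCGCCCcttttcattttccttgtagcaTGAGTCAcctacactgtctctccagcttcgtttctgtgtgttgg
Bases upstream of the start of Krt8, minus strand, chr15:102004483-102004732: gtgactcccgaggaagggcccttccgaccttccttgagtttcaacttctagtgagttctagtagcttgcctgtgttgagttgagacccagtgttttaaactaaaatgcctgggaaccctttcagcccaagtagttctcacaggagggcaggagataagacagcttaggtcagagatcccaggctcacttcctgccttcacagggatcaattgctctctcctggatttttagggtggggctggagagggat
Bases upstream of the start of Krt18, plus strand, chr15:102027930-102028179: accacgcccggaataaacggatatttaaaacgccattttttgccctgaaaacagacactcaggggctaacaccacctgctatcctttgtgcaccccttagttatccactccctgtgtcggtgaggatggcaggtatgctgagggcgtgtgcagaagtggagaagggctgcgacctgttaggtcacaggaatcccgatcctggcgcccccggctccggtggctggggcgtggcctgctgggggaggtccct

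Most keratin promoters were without a peak in Müller cells. Of the 53 genes, 9 (17%) were open, against 68.3% of all protein-coding genes (14850 of 21728). The open genes were Krt222, Krt25, Krt10 and Krt33a on chromosome 11 (4 of 27, 14.8%) and Krt80, Krt88, Krt86, Krt1 and Krt8 on chromosome 15 (5 of 26, 19.2%). Another 34 keratin genes had no promoter peak in any replicate, against 5271 of all 21728 protein-coding genes. The other 10 keratins had one in 1 or 2 replicates. Krt8, the simple epithelial type II keratin, was among the open genes, whereas its partner Krt18 had no peak.

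The low share was present in each replicate taken alone. Replicates 1, 2 and 3 had a promoter peak at 17, 17 and 9 keratin genes, or 32.1%, 32.1% and 17% of the family (mean 27% ± 8.71, SD, n = 3). Among all protein-coding genes the shares were 74%, 73% and 70.8% (mean 72.6% ± 1.64, SD, n = 3). The highest share of the keratins was below the lowest share of all genes. Replicate 3 was the lowest of the 3 in both sets, and the keratin count there was 9 against 17 in the others.

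**Figure D1:**
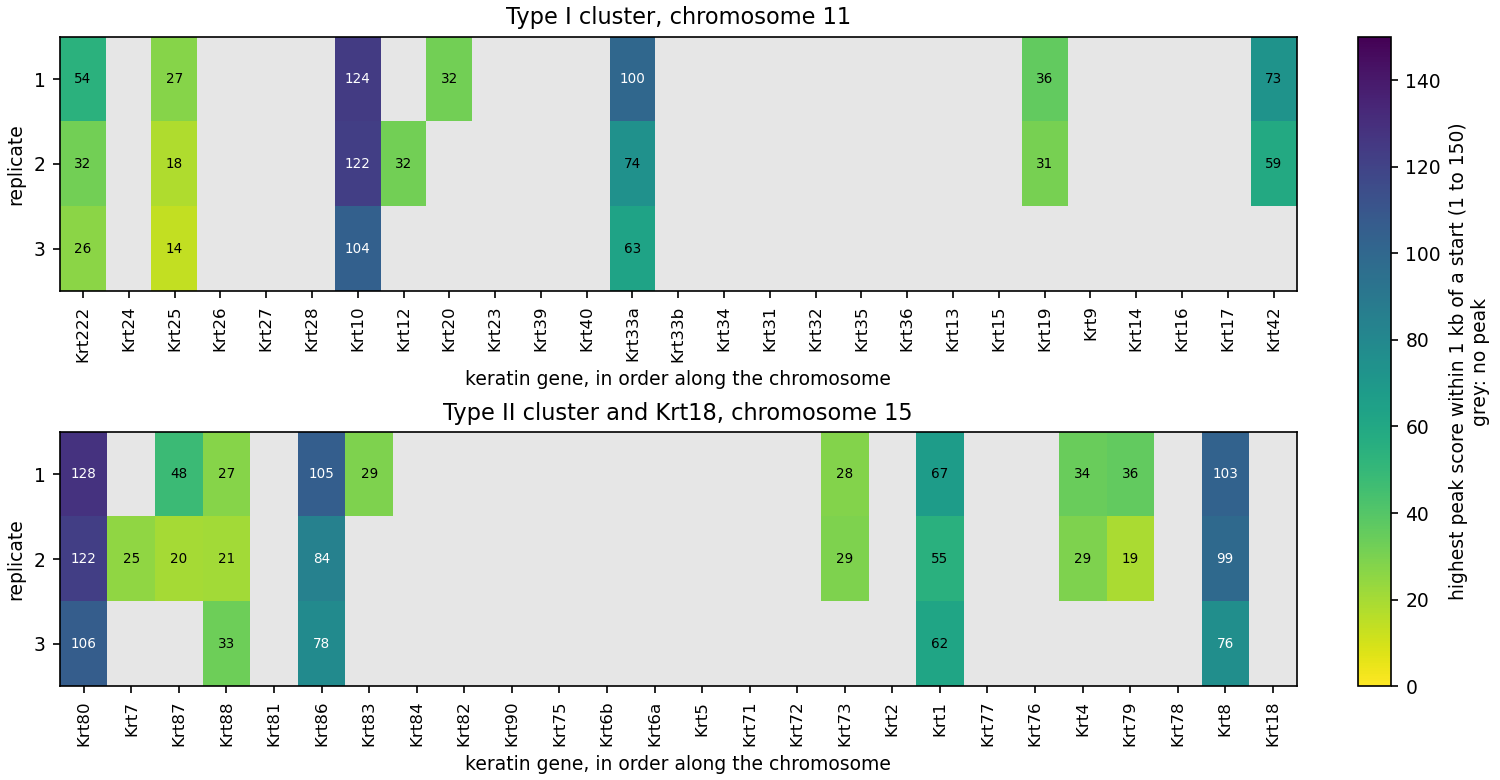
Highest peak score (colour, 1 to 150) within 1 kb of any start of each keratin gene in replicates 1, 2 and 3, with genes in order along chromosome 11 (top) and chromosome 15 (bottom) and grey for no peak. Columns filled in all 3 rows are the 9 open genes, and 34 columns are grey throughout.

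Where the start is taken from the best supported coding transcript alone, 6 keratin genes were open (Krt222, Krt25, Krt80, Krt88, Krt86 and Krt8), against 63.4% of all genes. The sites of Krt10, Krt33a and Krt1 lie inside those genes, next to the starts of secondary transcripts. From the best supported coding start of a keratin gene the nearest reproducible site was a median of 4538 bp away (range 0 to 29401 bp), and over all genes the median was 69 bp. The keratin with the greatest distance was Krt73.

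Among the 7 keratins classed here as simple epithelial, 2 were open, Krt80 and Krt8. Krt80 had 3 reproducible sites, among them the strongest promoter site of the family by its lowest score. The one 294 bp upstream of its coding start, chr15:101370456-101370605, scored 128, 122 and 106 in replicates 1, 2 and 3, above 95.2%, 95.2% and 91.7% of the peaks of each replicate. A weaker site 57 bp downstream of the start, chr15:101369896-101370105, scored 37, 34 and 42. The third, chr15:101369156-101369345, lies inside the gene and scored 107, 102 and 98, and is 7 bp from the annotated start of the microRNA gene Mir1941. All 3 sites of Krt80 were called in all 3 replicates, and in each replicate the site just downstream of the coding start was the weakest.

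At Krt8 the site chr15:102005416-102005585 scored 103, 99 and 76, above 86.2%, 88.2% and 79.3% of the peaks of replicates 1, 2 and 3. It lies 934 bp upstream of the annotated start, close to the edge of the 1 kb window, and within the gene Gm36026, a lincRNA. RefSeq places the start of Krt8 140 bp further downstream, and the site is then 1074 bp away. Another site, chr15:102002976-102003145, lies inside Krt8 and scored 103, 90 and 98. No reproducible site lay nearer to the annotated Krt8 start than the upstream one, and the gene held no peak beside that of the inner site in any replicate.

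Krt18 had no peak and no hotspot, the authors' wider regions, within 1 kb of its start in any replicate, and no peak anywhere in the gene. The nearest reproducible site, chr15:102025616-102025865, lies 2315 bp upstream and scored 53, 32 and 36. From the RefSeq start, 36 bp further downstream, it is 2351 bp away. Krt18 is therefore not an open exception by this rule, and it counts as open only where the window is widened to 2500 bp.

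The other simple epithelial keratins had peaks in some replicates or none. Krt19, the keratin of many ducts, had a peak 36 bp from its coding start in replicate 1 and 56 bp from it in replicate 2, with scores of 33 and 30, and a further peak beside a secondary start with scores of 36 and 31. Krt20, a keratin of the intestinal lining, had a peak in replicate 1 with a score of 32, and Krt7, a keratin of glandular epithelia, had one in replicate 2 with a score of 25. Krt23 had none. All of these peaks were weak by score: those of Krt20 and Krt7 were above 19% and 17.3% of the peaks of their replicates. The hotspot at Krt20 in replicate 1 nevertheless reached the cap of 100 on the −log10 q scale. Those at Krt19 were at 4.14 and 4.8 in replicates 1 and 2, and that at Krt7 was at 2.91 in replicate 2.

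**Figure D2:**
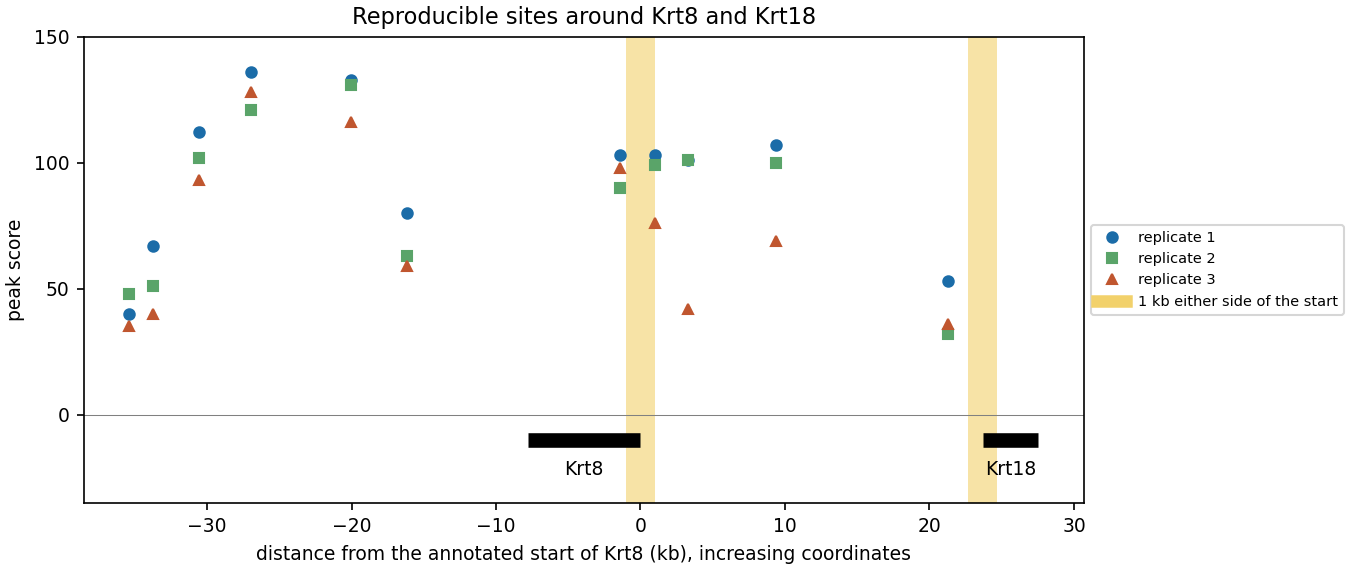
Peak score of each reproducible site around Krt8 and Krt18 (y axis, 1 to 150) by distance from the annotated start of Krt8 in kb (x axis), with a marker for each of the 3 replicates, black bars for the genes and shading 1 kb either side of each start. The strongest sites sit between Krt78 and Krt8, 1 site falls at the edge of the Krt8 window and none falls in the Krt18 window.

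Stratified epithelial keratins were open at 2 of 20 genes, Krt10 and Krt1, the pair of the upper epidermal layers. At neither did the site lie at the best supported coding start. The Krt10 site, chr11:99385976-99386165, scored 124, 122 and 104, above 93.9%, 95.2% and 91.1% of peaks. It covers an exon of Krt10 and overlaps the start of a coding transcript of lower support, 3199 bp from the best supported coding start. The Krt1 site, chr15:101846096-101846265, scored 67, 55 and 62 and lies 329 bp from the start of a retained intron transcript, and 4529 bp from the coding start. CpG dinucleotides, which are depleted in most of the genome, occurred at 1.17 times the number that base composition predicts in the Krt10 site and at 1.03 times that number in the Krt1 site. Both sites are thus within the gene body, with the centre in coding sequence, and both were found in all 3 replicates.

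The basal pair had no promoter peak. Krt5 and Krt14 were at 0 of 3 replicates, as were Krt15, another basal keratin, Krt13 of oral and oesophageal epithelium, and Krt6a, a keratin induced at wounds. The nearest reproducible site lay 3038 bp from the Krt5 start and 3843 bp from the Krt14 start, the latter with scores of 103, 98 and 44 inside the Krt14 gene. Krt12, the keratin of the corneal epithelium, had a single peak, 837 bp from its start in replicate 2, with a score of 32. Of the 20 genes of this class 14 had no promoter peak in any replicate.

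Peaks in replicates 1 and 2 without replicate 3 marked 3 more stratified keratins. Krt4, the partner of Krt13, scored 34 and 29. Krt79, a keratin of the hair canal and sebaceous duct, scored 36 and 19. Krt42 scored 73 and 59 at a site 558 bp from the start of a retained intron transcript, and its score was the highest among the keratins that were missed in replicate 3. Krt24 fell just outside the window, as a site with scores of 117, 116 and 63 lies 1017 bp from its start inside the gene, and its hotspot within 1 kb reached the cap of 100 on the −log10 q scale in every replicate.

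Keratins of the inner root sheath and companion layer, the sleeve around the growing hair, were open at 1 of 8 genes. Krt25 had a site 485 bp upstream of its start, chr11:99323436-99323665, with scores of 27, 18 and 14, the weakest reproducible promoter site of the family by its lowest score. These scores were above 10.8%, 4.91% and 3.19% of the peaks of replicates 1, 2 and 3, and with scores of at least 20 required the call of Krt25 was lost. Krt73 had a promoter peak in replicates 1 and 2, with scores of 28 and 29. The other 6 genes had none in any replicate.

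Hair and nail keratins were open at 2 of 15 genes. Krt86, a type II hair keratin, had a site 233 bp upstream of its start, chr15:101473076-101473245, with scores of 105, 84 and 78. Krt33a, a type I hair keratin, scored 100, 74 and 63 at chr11:100013856-100014065, at the start of a processed transcript, and 2147 bp from the coding start. Krt87 scored 48 and 20 in replicates 1 and 2, and Krt83 scored 29 in replicate 1. The other 11 genes of the class had no promoter peak. Krt86 was the hair keratin with a strong site upstream of a coding start.

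The 3 genes outside these classes were Krt222, Krt88 and Krt90. Krt222 was the keratin gene with a reproducible site over its best supported coding start, chr11:99243996-99244205, with scores of 54, 32 and 26. Krt88 scored 27, 21 and 33 at a site 899 bp upstream, chr15:101446636-101446845. Krt90 had no promoter peak. The scores of Krt222 were above 50.6%, 31.3% and 23.4% of the peaks of replicates 1, 2 and 3, so none stood far above the middle of its replicate. When each replicate was limited to its 184322 strongest peaks, the calls of Krt222, Krt25 and Krt88 were lost.

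Scores of the 6 keratins with a promoter peak in replicates 1 and 2 but not 3 (Krt19, Krt42, Krt87, Krt73, Krt4 and Krt79) ran from 28 to 73 in replicate 1 and from 19 to 59 in replicate 2. Without replicate 3 the count of open keratins rose from 9 to 15, with 71.9% of all genes open. Replicate 3 is also the one that had no microglia promoter peak and the fewest peaks. The part of either in these 6 genes was not tested. None of the 53 genes had a promoter peak in replicate 3 alone. Neither this count nor that of the 6 genes was made over all genes, so neither has a share to be read against.

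Genes that work with keratins in epithelia did not have the low share of the keratins. Of 20 epithelial transcription factors, 14 (70%) were open: Trp63, Grhl1, Grhl2, Grhl3, Ehf, Elf3, Elf5, Klf4, Klf5, Ovol1, Ovol2, Tfap2a, Tfap2c and Hr. Scores of Grhl1 were 142, 135 and 140, and those of Trp63, the regulator of stratified epithelia, were 30, 20 and 24. Of 20 genes that anchor keratins at desmosomes and hemidesmosomes, 14 (70%) were open: Dsp, Jup, Ppl, Pkp1, Pkp2, Dsg1a, Dsg2, Dsc2, Plec, Dst, Itgb4, Itga6, Perp and Cd151. Desmoplakin, Dsp, which links keratins to the desmosome, scored 57, 47 and 47, and Plec, the cytolinker plectin, scored 140, 137 and 136. Both shares were near the 68.3% of all genes.

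The other intermediate filament genes were open at 13 of 16 (81.2%): Vim, Gfap, Nes, Synm, Nefm, Nefh, Ina, Lmna, Lmnb1, Lmnb2, Bfsp1, Bfsp2 and Sync. Vimentin, Vim, scored 142, 137 and 138, and Gfap scored 135, 122 and 85. In each replicate the score of Vim was above that of every keratin promoter peak. The late products of epidermal and hair differentiation had low shares, as the keratins had. Of 20 cornified envelope genes 5 (25%) were open (Tgm1, Sprr1a, Casp14, Aloxe3 and Alox12b), and of 57 Krtap genes, whose proteins surround the hair keratins, 6 (10.5%) were open. The plot of shares by gene list shows the keratins with the Krtap and cornified envelope genes below the line of all genes.

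**Figure D3:**
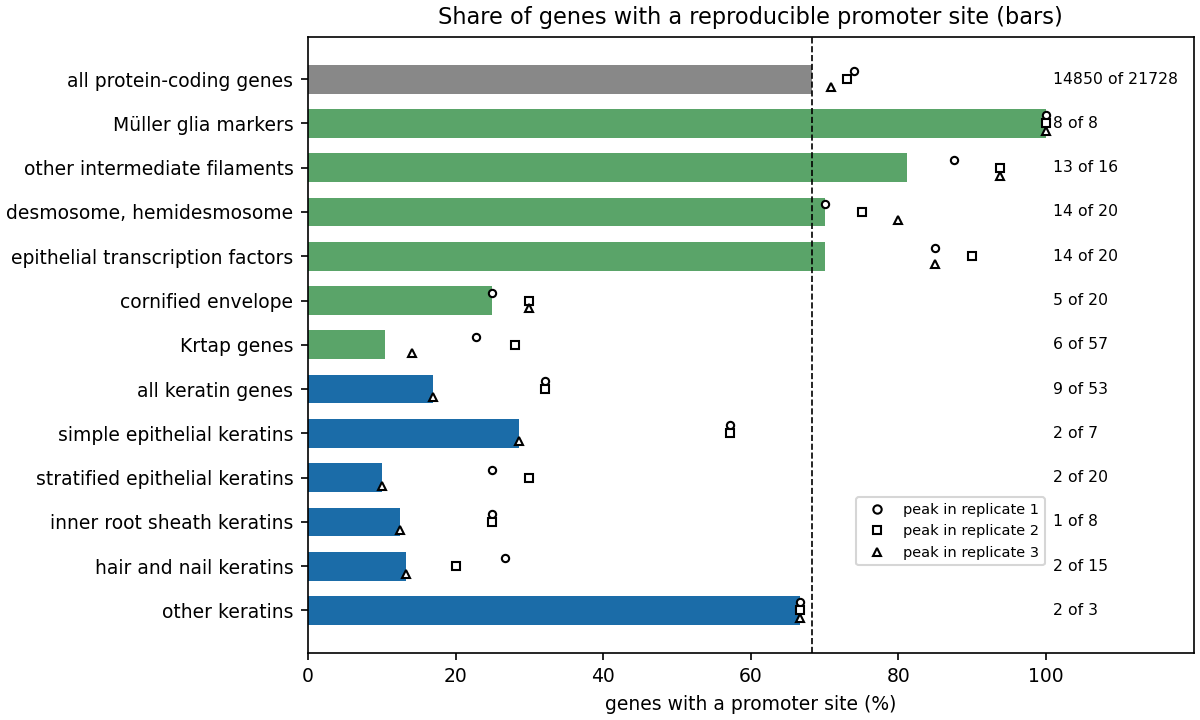
Percent of genes with a reproducible promoter site (bars) for all protein-coding genes, for gene lists and for the keratins by class, with the percent having a peak in each of replicates 1, 2 and 3 as markers, the counts at the right and a dashed line at 68.3%. The 53 keratins stand at 17%, and 2 of the 3 keratins outside the classes are open.

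Markers of cell types that could be present beside the Müller cells were read from the same files. Of 12 surface and corneal epithelium genes 8 were open (Trp63, Cdh1, Epcam, Grhl2, Grhl3, Ehf, Dsp and Perp), while Krt5, Krt14, Krt12 and Sfn were not. Cdh1 scored 44, 41 and 41. Of 10 pigment epithelium genes 7 were open (Best1, Mitf, Tyrp1, Pmel, Lrat, Ttr and Rgr), of 7 endothelium genes 4 (Kdr, Tek, Pecam1 and Cldn5) and of 6 rod genes 3 (Nrl, Gnat1 and Sag). The shares of surface and corneal epithelium, pigment epithelium, endothelium and rod genes were 66.7%, 70%, 57.1% and 50%, against 68.3% of all genes. At the best supported coding start alone the counts were 8, 6, 3 and 0 in that order, so no rod gene was open there. Of all genes 63.4% were open at that start. The part of other cells in the keratin values was not tested, and an accessible promoter in a few cells and a weakly accessible one in many cells cannot be told apart.

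Keratin promoters held few CpG dinucleotides. Within 500 bp either side of the best supported coding start, the ratio of observed to expected CpG had a median of 0.323 over the keratins (range 0.108 to 0.583) and 0.57 over all genes. No keratin reached 0.6, the range in which 96.4% of all genes were open. With a ratio of 0.2 to 0.4, 7 of 34 keratins were open, against 45.7% of all genes in that range. With a ratio of 0.4 to 0.6, 1 of 14 keratins was open (Krt25), against 81.3% of all genes. With a ratio under 0.2, 1 of 5 was open (Krt88), against 17.5%. Where only sites at that same coding start are counted, 1 of 5, 4 of 34 and 1 of 14 keratins were open from the lowest to the highest of these ranges, against 9.48%, 31.7% and 77.6% of all genes. Krt18 has a ratio of 0.546 and Krt8 one of 0.378. The site that makes Krt8 open is 934 bp from the start, outside the stretch in which CpG was counted. With a promoter window of 500 bp neither gene was open, and with 2500 bp both were.

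**Figure D4:**
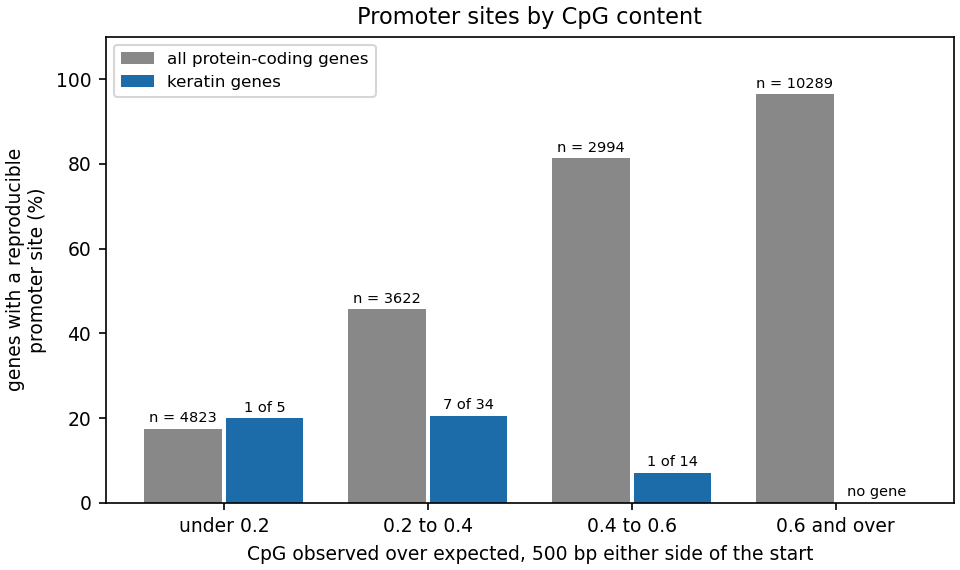
Percent of genes with a reproducible promoter site (y axis, within 1 kb of any start) by the ratio of observed to expected CpG within 500 bp of the coding start (x axis), for all protein-coding genes (grey) and keratins (blue), with the number of genes above each bar. In the 0.4 to 0.6 range 1 of 14 keratins and 81.3% of all genes were open, and no keratin falls in the highest range.

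The letters of the TATA box were frequent upstream of keratin genes, read at any position and not only at the usual distance from the start. In the 250 bases upstream of the best supported coding start, TATAAA was found on either strand at 24 of 53 keratins (45.3%) and at 11.5% of all genes. Of those 24 keratins 4 were open, against 40.7% of all genes with the match, and with sites at that same start alone 2 were open (Krt25 and Krt86), against 35%. The GC box was found at 8 keratins (15.1%) and at 41.4% of all genes, and the CCAAT box at 20 (37.7%) and 35.7%. The 250 bases upstream of Krt8 and of Krt18, printed above, held none of the 12 motifs.

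Some keratin genes have near-identical copies, where short reads cannot be placed on a single gene. The share of 36-base words within 1 kb of the coding start that occur once in the genome had a median of 99% over the 44 keratins that were not open (range 67.2% to 100%) and of 95.1% over the 9 open ones (range 74.4% to 100%). Of the 44 genes, 34 reached 90% and none was under 50%. The lowest shares were those of Krt6b with 67.2%, Krt6a with 67.7%, Krt16 with 68.9% and Krt81 with 69.5%. None of these genes had a promoter peak. Krt86 was open at 74.4%, but within its site alone 100% of the words occur once. The sites of the open genes Krt10, Krt33a and Krt1 lie outside the stretches measured here. The share over all genes was not computed, and the part of read placement in the calls was not tested. How the authors treated reads that map to several places is not given in the sources read.

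The clusters themselves were not empty of accessible sites. The type I span, chr11:99232761-100269871 (1037 kb), held 58 reproducible sites, or 5.59 per 100 kb, and the type II span, chr15:101347444-102032027 (685 kb), held 49, or 7.16 per 100 kb. The genome outside assembly gaps averaged 5.68 per 100 kb. Among windows of the same width tiled along the autosomes and X, 50.3% held fewer sites than the type I span (median 57) and 66.9% held fewer than the type II span (median 37). The type I span was thus near the middle of the genome's windows and the type II span above it.

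In single replicates the type I span held 111, 103 and 69 peaks and the type II span 102, 89 and 55. Per 100 kb this was 9.1 ± 2.15 in the type I span, 12 ± 3.55 in the type II span and 9.97 ± 2.42 in the genome (mean ± SD, n = 3). The flanking stretches of the same width held more reproducible sites, at 13.5 and 15.6 per 100 kb beside the type I span and 12.7 and 13.3 beside the type II span. These flanks hold 35 and 45, and 13 and 27, protein-coding genes.

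Most sites in the spans lay between protein-coding genes. Each site was put in the first class that held, in the order of promoter, exon, intron and intergenic, with noncoding genes left aside. Of the 107 sites, 18 (16.8%) were at promoters of protein-coding genes, 8 (7.48%) in exons, 9 (8.41%) in introns and 72 (67.3%) were intergenic. Over all reproducible sites these shares were 19.2%, 2.75%, 35.3% and 42.7%. With promoter sites included, the centres of 14 of the 107 sites (13.1%) fell in an exon, against 9.12% of all sites, and 12 (11.2%) fell in coding sequence, against 2.28%. A site lay inside the body of 20 of the 53 keratin genes (37.7%). The share was 67.1% of all protein-coding genes and 54.9% of the 10265 as long as keratin genes (2812 to 22719 bp). Of the 240 regions with a peak in any replicate, 44.6% had one in all 3, 23.3% in replicates 1 and 2 alone and 4.58% in replicate 3 alone, and over the genome these shares were 41.3%, 25.4% and 5.67%.

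Sites in the type I span were weaker than the genome's sites at the median. Median scores in replicates 1, 2 and 3 were 71, 59 and 39 in the type I span, 80, 66 and 53 in the type II span, and 79, 65 and 48 over all reproducible sites. The type I span was below the genome in each replicate, and the type II span was above it in each.

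Sites were unevenly spread along the clusters. On chromosome 11 the stretch from Krt222 to Krt40, with 12 keratin genes, held 8.05 sites per 100 kb. The 468 kb between Krt40 and Krt33a, where Krtap genes of that chromosome lie, held 3.85. The stretch from Krt33a to Krt36, with hair keratins, held 7.41, and that from Krt13 to Krt42, which includes Krt14, Krt15, Krt16, Krt17 and Krt19, held 5.24. On chromosome 15 the stretch from Krt75 to Krt2, which includes Krt5, Krt6a and Krt6b, held 8 sites in 255 kb, or 3.14 per 100 kb. The ends of this cluster held more, with 7 sites in the 40.9 kb between Krt80 and Krt7 (17.1 per 100 kb) and 11 sites in the 77.7 kb from the end of Krt78 to the end of Krt18 (14.1 per 100 kb). Of these 11 sites, 6 lay between Krt78 and Krt8, 1 inside Krt8 and 4 between Krt8 and Krt18. These stretches were chosen after their sites were seen.

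**Figure D5:**
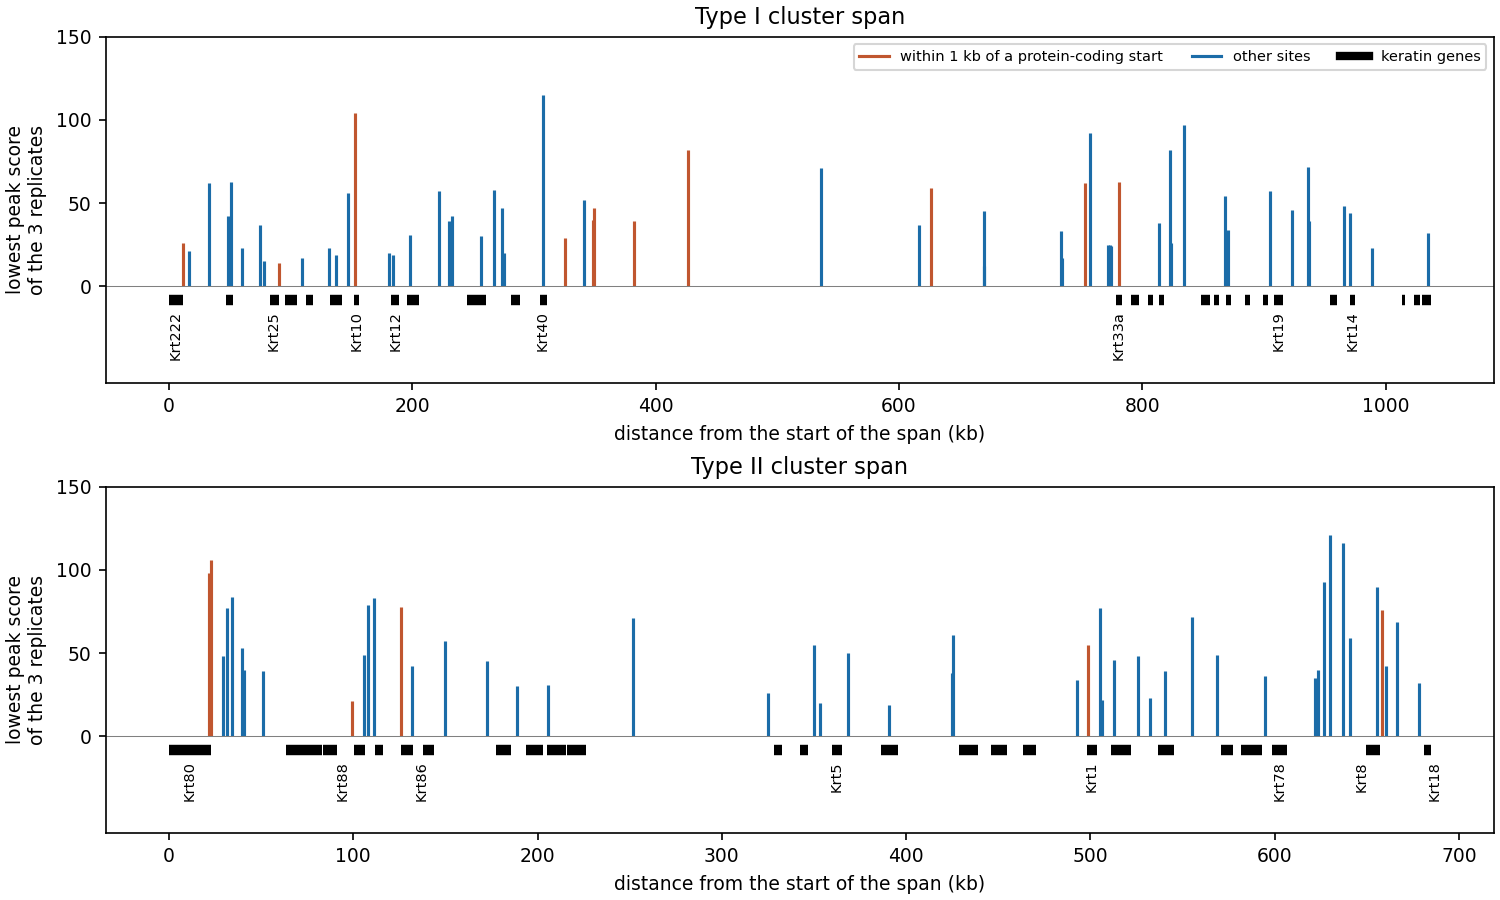
Lowest peak score of the 3 replicates at each reproducible site (y axis, 1 to 150) along the type I span (top) and the type II span (bottom), by distance from the start of the span in kb (x axis), with sites within 1 kb of a protein-coding start in red, other sites in blue and keratin genes as black bars. The tallest lines of the type II span stand beside Krt80 at its left end and between Krt78 and Krt8 at its right end.

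The strongest sites of the type II span lay beside Krt80 and between Krt78 and Krt8. Ranked by the lowest of the 3 scores, the first was chr15:101977456-101977625, with scores of 136, 121 and 128, and 95.4% of all reproducible sites had a lower lowest score. It lies 23169 bp from the start of Krt78, the nearest annotated start of any gene type, and no gene or exon covers it. Next came chr15:101984336-101984505, with scores of 133, 131 and 116 (94% of sites lower), also between Krt78 and Krt8. The Krt80 sites at chr15:101370456-101370605 and chr15:101369156-101369345 followed, above 91% and 88.1% of sites. The fifth, chr15:101973816-101973985, again between Krt78 and Krt8, scored 112, 102 and 93 (86% of sites lower).

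The strongest site of the type I span was in an exon of Krt40, a hair keratin whose own promoter had no peak. This site, chr11:99539816-99540085, scored 119, 120 and 115 (93.7% of sites lower), 3073 bp from the Krt40 start. The Krt10 site came next (90.4% of sites lower). The site chr11:100066676-100066845, between protein-coding genes but within the antisense gene Gm11571, scored 119, 113 and 97, and chr11:99990076-99990265 scored 113, 109 and 92. The fifth, chr11:99659296-99659505, scored 107, 90 and 82 and lies 336 bp from the start of Gm11563, a protein-coding gene between Krt40 and Krt33a. Of the 5 strongest type I sites, 2 lay inside keratin genes.

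Sequence matches in the sites of the clusters were compared with those of all reproducible sites by share, in the 150 bp round the centre of each site. Outside promoters, AP-1 letters were in 18 of 89 cluster sites (20.2%) and in 21.5% of 117324 sites in all. The shares were 15.7% and 19.8% for TEAD, 14.6% and 18.1% for NFI, 12.4% and 21.8% for the CCAAT box, 10.1% and 12.5% for SOX, and 6.74% and 13.4% for the E-box. The GC box was in 7.87% and 5.21%, the TATA box in 7.87% and 4.94%, and the CTCF core in 7.87% and 3.87%. The GRHL, ETS and PU.1 letters were in none of the 89 sites and in 0.933%, 0.931% and 1.27% of all. With 89 sites, each of these shares rests on few sites.

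The AP-1 letters occurred at least 2 times in 6 of the 107 cluster sites (5.61%) and in 2.01% of all reproducible sites. Among the 6 were the site upstream of Krt8 and the strongest site between Krt78 and Krt8, both printed above. The Krt8 site has 2 AP-1 matches and no other match, and a CpG ratio of 0.13. The strongest site between Krt78 and Krt8 has 2 AP-1 matches, 2 GC boxes and a CCAAT box, and a CpG ratio of 0.85. The site upstream of Krt86 holds 1 match each to AP-1, the GC box and the CCAAT box, and the site upstream of Krt80 holds a CTCF core at its end.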

How the data were processed

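DNase-seq had been run on Müller cells in 3 biological replicates of 1 group, numbered in the labels. For each replicate the authors deposited peaks with a score and hotspots with a −log10 q (p-value adjusted), on mm10 per the labels. Each list came from that library alone. The aligner, callers, versions, read filters and depth are not given in the sources read, and the score serves as a description. Sites are ranked by the lowest of their 3 scores although scores ran lower in replicate 3 (median 79, 65 and 48 over reproducible sites in replicates 1, 2 and 3), so that replicate often sets the rank. A number of peaks repeated another's position (21, 20 and 23 in replicates 1, 2 and 3) and were used once.

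From these lists, peaks of the 3 replicates were merged at an overlap of 1 bp or more, and regions with a peak from each replicate were counted within 1 kb of any start of 21728 protein-coding genes (1 per symbol, GENCODE M21, autosomes and X) and inside the cluster spans, which run from the first to the last keratin gene and take sites by their centre. Sequence came from GRCm38.p6, and RefSeq promoter entries were matched by symbol for 36 of the 53 keratins. Python 3.11.15, numpy 2.4.6, pysam 0.24.0 and matplotlib 3.10.9 were used. The overlap steps were tested on simulated data. No test was run, since there is 1 group: counts are read beside the same count over all genes, sites or windows where it was made.

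Every keratin with a promoter peak is named with its values, others by class apart from well-known ones (Krt5, Krt14, Krt13, Krt15, Krt6a), the 5 strongest sites of each span with position, and genes of a list of 20 or fewer where open. Lists were epithelial transcription factors, desmosome and hemidesmosome genes, cornified envelope, other intermediate filaments, Müller glia, pigment epithelium, surface and corneal epithelium, microglia and macrophages, endothelium and rods. Members and lists were chosen with earlier results of these data known. Alternatives changed the window, starts, score minimum, number of peaks, overlap, peak type, span and replicates.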

Additional observations from a re-analysis of the deposited data

How the results depend on the processing

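The count of open keratins was 9 as reported. With a window of 2500 bp it was 16, adding Krt24, Krt36, Krt15, Krt14, Krt42, Krt79 and Krt18, and with 500 bp it was 7, without Krt88 and Krt8. Leaving out 1 replicate at a time gave 9 to 15 open keratins, and the 15 came without replicate 3, adding Krt19, Krt42, Krt87, Krt73, Krt4 and Krt79. It was 7 with coding transcripts, 6 at the best supported coding start (added after seeing the data), 6 with 184322 peaks from each replicate (without Krt222, Krt25 and Krt88), 8 with scores of at least 20 (without Krt25), 9 with 50% overlap, 9 with sites nearer to no other gene and 10 with hotspots. In the same settings 63.4% to 72.2% of all genes were open. Leaving out 1 replicate at a time gave 57 to 85 sites in the type I span (58 with all) and 50 to 78 in the type II span (49 with all), the highest of each without replicate 3. The other settings kept both spans within 1.5 times, at 46 to 75 and 43 to 63 sites. The cause of these differences was not tested. Depth is unknown and limits weak peaks in ways that could not be measured, and 3 replicates of 1 group allow no comparison of conditions. No paired analysis was possible because there is 1 group.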
